A study of Mus musculus with 4 samples.

Results

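The receptors that signal through gp130, with the kinases, the transcription factor, and the feedback inhibitor that follow them, were measured gene by gene in mouse dorsal root ganglion (DRG) neurons. The 10 genes were *Il6st*, *Osmr*, *Lifr*, *Il6ra*, *Cntfr*, *Il11ra1*, *Jak1*, *Jak2*, *Stat3*, and *Socs3*, taken by symbol from the 31053 genes of the count matrices. All 10 were present once. The study sequenced single cells from L4-5 DRGs of *Pirt-EGFPf* mice, in which farnesylated EGFP takes the place of the *Pirt* reading frame on a C57BL/6 background, on day 7 after both sciatic nerves were loosely ligated (chronic constriction injury, CCI) or after sham surgery. All mice were heterozygous for the EGFPf allele, 7 to 8 weeks old, and GFP+ cells were sorted before sequencing, so neurons that lack *Pirt*, many of them large and neurofilament-rich, are underrepresented. There were 4 libraries, and values are given below in the order Male-Sham, Female-Sham, then Male-CCI, Female-CCI. Each library pooled 20 DRGs from 5 mice. With 2 libraries per surgery, the male and the female library served as replicates, and because littermates had the same surgery, litter and surgery cannot be told apart.

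gp130, the product of *Il6st*, is the signalling subunit shared by the interleukin-6 (IL-6) family of cytokines. It pairs with OSMR to receive oncostatin M, with LIFR to receive leukemia inhibitory factor (LIF), and with LIFR and the anchored subunit CNTFR to receive ciliary neurotrophic factor. IL-6 and IL-11 bind their own alpha receptors, IL6RA and IL11RA1, before gp130 joins. JAK1 and JAK2 are kinases bound to these receptors, STAT3 is the factor they phosphorylate, and SOCS3 is induced by STAT3 and switches the receptor off again. In sensory neurons this pathway is known for the response of the cell body to axon injury, and the oncostatin M receptor is known from itch-related neurons, where OSMR also pairs with IL31RA.

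The genes are on 6 chromosomes of GRCm38. *Il6st* spans chr13:112464070-112510086, *Il6ra* chr3:89864059-89913196, *Jak2* chr19:29251828-29313080, *Jak1* chr4:101152367-101265282, *Stat3* chr11:100885098-100939540, and *Socs3* chr11:117966079-117970047. *Osmr* (chr15:6813577-6874969) and *Lifr* (chr15:7090614-7197489) are close together on opposite strands, as are *Cntfr* (chr4:41657498-41697089) and *Il11ra1* (chr4:41699989-41769474). *Il11ra1* overlaps *Galt* on its own strand and has a near-identical copy, *Il11ra2*, which had 0 UMIs (unique molecular identifiers, each standing for 1 captured RNA molecule) in every library, so its counts carry more doubt than those of the other genes.

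One promoter is shown because *Socs3* changed most clearly after CCI and is the textbook STAT3 target. The STAT motif TTCNNNGAA, which reads the same on both strands, was searched in the RefSeq promoters (250 bases before to 50 after each start). It occurred in 1 of the 17 promoters of the 10 genes, that of *Socs3*, and in 2726 of 32851 promoters of all genes (8.30%). The 250 bases before the *Socs3* start (chr11:117969367-117969616, minus strand, GRCm38.p6) follow, with the match in capitals, 154 to 146 bases upstream.

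Socs3: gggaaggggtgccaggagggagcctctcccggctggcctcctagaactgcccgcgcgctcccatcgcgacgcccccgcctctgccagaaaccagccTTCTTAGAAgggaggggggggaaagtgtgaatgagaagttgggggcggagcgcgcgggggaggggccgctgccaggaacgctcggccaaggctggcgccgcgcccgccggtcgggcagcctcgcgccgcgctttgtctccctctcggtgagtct

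A match is a description of the letters and says nothing about binding. A window without these letters says nothing about STAT3 either.

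The matrices held 195684124 to 237069156 UMIs per library. After doublets and poor cells were removed, 15715 cells were left, 15133 of them neurons (3281, 5398, 2817, and 3637), with a median of 32490 to 56457 UMIs per neuron. Neurons were *Sprr1a*+ (ln-normalized value above 1), the study's mark of an injured neuron, in 42, 144, 1467, and 1789 cases. Clusters were named from marker genes into 10 subtypes, called NP1-like, NP2-like, and so on, beside the CCI-induced (CCI-ind-like) clusters that held 44, 139, 1268, and 1599 neurons. Satellite glial cell (SGC)-like cells numbered 186, 145, 118, and 109. The 6 SGC markers summed to 1340, 1666, 905, and 1104 CPM in neurons and to 110800 to 137100 CPM in SGC-like cells, while 6 immune, 5 fibroblast, and 3 Schwann cell markers each summed to under 8 CPM in neurons. Of the endothelial markers, *Egfl7* had 62.6, 69.1, 56.1, and 59.7 CPM in neurons, and *Pecam1*, *Cldn5*, *Flt1*, and *Esam* had at most 2.79 CPM. No marker of these lists was at 0 over all neurons of a library. Pairs of libraries shared 4.44% to 11.2% of the barcodes of the smaller one before filtering and at most 6 barcodes among the cells kept. Levels are CPM, the UMIs of a group of cells in a library on a common total, as mean ± SD of n = 2 libraries where no value per library is given, and intervals and limits cover counting error only. Because single mice were not kept apart, p-values measure the spread between pools.

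In sham DRGs the receptors were spread over the subtypes in different patterns. These levels are a description with no test, since the subtypes were made by clustering the same cells, and *Il6st*, *Osmr*, *Il11ra1*, *Jak1*, and *Socs3* were among the 3000 genes that made the clusters.

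The shared subunit gene *Il6st* was found in every subtype. It was highest in PEP1-like neurons (244 ± 8.00 CPM), the *Tac1*+ peptidergic nociceptors, followed by NP3-like neurons at 189 CPM in both sham libraries. NP1-like (139 ± 20.3 CPM) and NP2-like neurons (129 ± 3.89 CPM) overlapped. The lowest levels were in cLTMR-like (42.2 ± 3.46 CPM) and NF1-like neurons (39.1 ± 1.39 CPM), which also overlapped, and the highest stood 6.24-fold above the lowest. Of the 9 pairs of neighbours in this order, 6 did not overlap.

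*Osmr*, the oncostatin M receptor, had the widest range of the receptors found in every subtype, 396-fold from top to bottom. NP1-like neurons, which express *Nppb* and *Sst*, had 407 and 353 CPM in the 2 sham libraries. NP3-like neurons, marked by *Mrgpra3*, had 141 and 121 CPM, and PEP1-like neurons 76.7 and 61.2 CPM. Both of the non-peptidergic subtypes are known as itch-related neurons. NP2-like neurons, marked by *Mrgprd*, were far lower at 19.2 and 22.8 CPM, and all other subtypes were below 10 CPM. Of the 9 pairs of neighbours 8 did not overlap, the exception being NF2-like and cLTMR-like neurons. NP1-like neurons were only 1.59% to 2.68% of the sham neurons and carried 26.7% and 20.9% of all *Osmr* UMIs in neurons. *Il31ra*, the partner of OSMR in the interleukin-31 receptor, was nearly restricted to the same subtype, with 319 and 279 CPM in NP1-like neurons and at most 4.74 CPM in any other.

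*Lifr* was abundant throughout, from 435 ± 5.15 CPM in NP2-like to 146 ± 19.9 CPM in PEP5-like neurons. NP1-like neurons were next to the top at 399 ± 25.6 CPM. cLTMR-like overlapped with NP3-like neurons, and NF2-like with PEP5-like neurons, while the other 7 of 9 neighbours were apart.

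Among the alpha receptors, *Cntfr* was low in NP1-like and NP3-like neurons, the highest for *Osmr*, and also in NP2-like neurons. PEP2-like neurons were highest at 92.3 ± 8.15 CPM, and NP1-like (5.53 ± 0.225 CPM), NP3-like (4.63 ± 0.272 CPM), and NP2-like neurons (2.35 ± 0.383 CPM) were the 3 lowest. Of 9 neighbours 8 were apart. *Il11ra1* was highest in NF2-like neurons (33.8 ± 5.13 CPM) and 17.8-fold lower in NP2-like neurons (1.90 ± 0.294 CPM). *Il6ra* was at the edge of detection. NP1-like neurons had 4 and 2 UMIs, or 0.948 and 0.565 CPM, and the other subtypes had at most 2 UMIs in a sham library. NF1-like, PEP1-like, and NP3-like neurons had 0 UMIs in both sham libraries, which allows up to 0.291, 0.112, and 0.251 CPM in the shallower library of each.

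**Figure D1:**
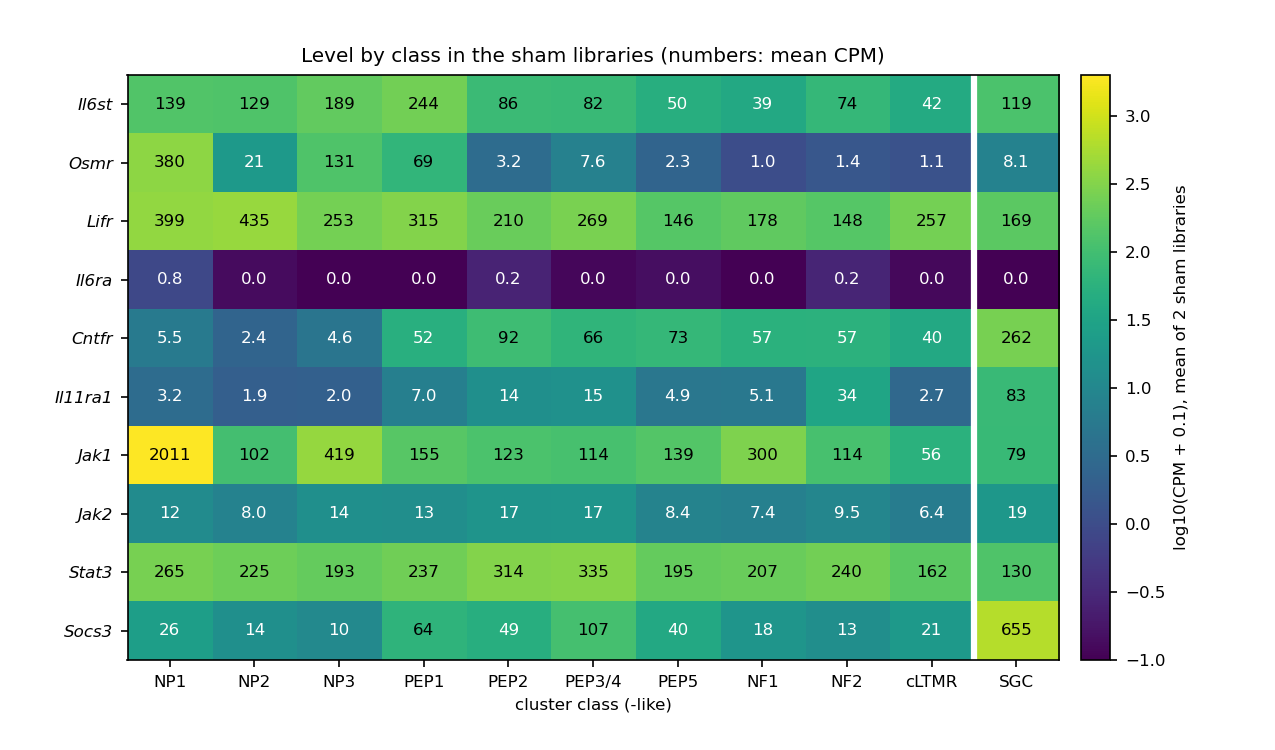
Mean level of the 10 genes (rows) in the 10 neuronal subtypes and in SGC-like cells (columns) of the 2 sham libraries. The number in each field is the mean in CPM and the colour is log10(CPM + 0.1), so a reader sees *Osmr* at 380 CPM and *Jak1* at 2011 CPM stand out in NP1-like neurons and *Cntfr* fall away in the 3 NP subtypes.

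The kinase gene *Jak1* had the pattern of *Osmr* at its upper end. NP1-like neurons had 2240 and 1781 CPM, NP3-like neurons 438 and 400.5 CPM, and cLTMR-like neurons, at the bottom, 59.0 and 52.4 CPM. The NP1-like neurons carried 27.3% and 19.5% of all neuronal *Jak1* UMIs in the sham libraries. NF1-like neurons, which were the lowest for *Osmr*, were the third highest for *Jak1* at 300.3 ± 8.06 CPM. *Jak2* ranged only 2.70-fold, from 17.3 ± 0.488 CPM in PEP3/4-like to 6.39 ± 0.343 CPM in cLTMR-like neurons.

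*Stat3*, the transcription factor, was the most even of the 10 genes, at 335 ± 2.69 CPM in PEP3/4-like and 162.5 ± 1.00 CPM in cLTMR-like neurons. Its inhibitor *Socs3* was uneven. PEP3/4-like neurons (*Tac1*+ and *Sstr2*+) had 107 ± 4.09 CPM and PEP1-like neurons 63.9 ± 8.66 CPM, and NP2-like, NF2-like, and NP3-like neurons had 13.8, 13.4, and 10.4 CPM and overlapped. Together PEP3/4-like and PEP1-like neurons held most of the sham *Socs3* UMIs, 40.9% and 43.1% for the first and 26.7% and 22.1% for the second. SGC-like cells had 504 and 807 CPM of *Socs3* in sham, and the SGC marker sum was also among the higher in PEP3/4-like neurons (2719 and 3029 CPM) and lower in NP2-like neurons (404 and 525 CPM). In PEP5-like neurons that sum was 3915 and 4336 CPM with *Socs3* at 34.1 and 45.3 CPM. The part of glial RNA in these levels was not tested.

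The first comparison asked which genes of the pathway differ between CCI and sham when all neurons of a library are summed. Summed counts entered edgeR's quasi-likelihood test, p was adjusted over 17232 genes (Benjamini-Hochberg), and a gene was called at an adjusted p below 0.05 and a log2 change beyond 0.5 in size. Of the 10 genes 3 rose and 0 fell, against 27.8% of all genes called (15.2% higher and 12.7% lower). At an unadjusted p below 0.05, 10479 genes passed. The median log2 change of the 10 genes was 0.07, and that of all genes -0.0061.

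*Socs3* lay at 43.2 and 48.2 CPM in the sham libraries and at 95.7 and 104 CPM in the CCI libraries. Both CCI libraries were well above both sham libraries, and the log2 change was 1.18 (SE 0.071, adjusted p = 3.9e-05 from edgeR). *Il6ra* had 19 and 14 UMIs in the sham libraries and 207 and 189 in the CCI libraries, or 0.117, 0.0739, 1.27, and 1.18 CPM. It remained the least abundant of the 10 genes after its rise of 3.75 (SE 0.24, edgeR adjusted p = 4.3e-05), and the pooled UMI ratio was 13.1 (95% interval 9.16 to 19.3). *Jak2* lay at 11.2 and 11.8 CPM in sham and at 15.1 and 17.9 CPM in CCI libraries. Its log2 change of 0.58 (SE 0.089, edgeR adjusted p = 0.0018) was 0.45, below the size limit, without the Female-CCI library.

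The main receptor subunits and *Stat3* were not called. *Il6st* was within 120, 115, 118, and 117 CPM and *Lifr* within 287, 280, 273, and 281 CPM, so sham and CCI overlapped for both (edgeR adjusted p = 0.41 and 0.71). The *Stat3* levels of 236.5, 243, 260, and 273 CPM did not overlap between surgeries, but the log2 change was only 0.21 (SE 0.051, edgeR adjusted p = 0.013). *Osmr* lay at 39.6 and 31.5 CPM in sham and 28.0 and 26.5 CPM in CCI libraries, and *Cntfr* at 42.7 and 44.0 against 34.3 and 35.4 CPM. Their changes of -0.33 (SE 0.11, edgeR adjusted p = 0.044) and -0.26 (SE 0.041, adjusted p = 0.0019) passed the p limit and not the size limit. *Jak1* (214, 170, 212, and 181 CPM) and *Il11ra1* (6.97, 8.22, 6.43, and 7.31 CPM) overlapped between the surgeries, with adjusted p = 0.58 and 0.49 in edgeR.

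**Figure D2:**
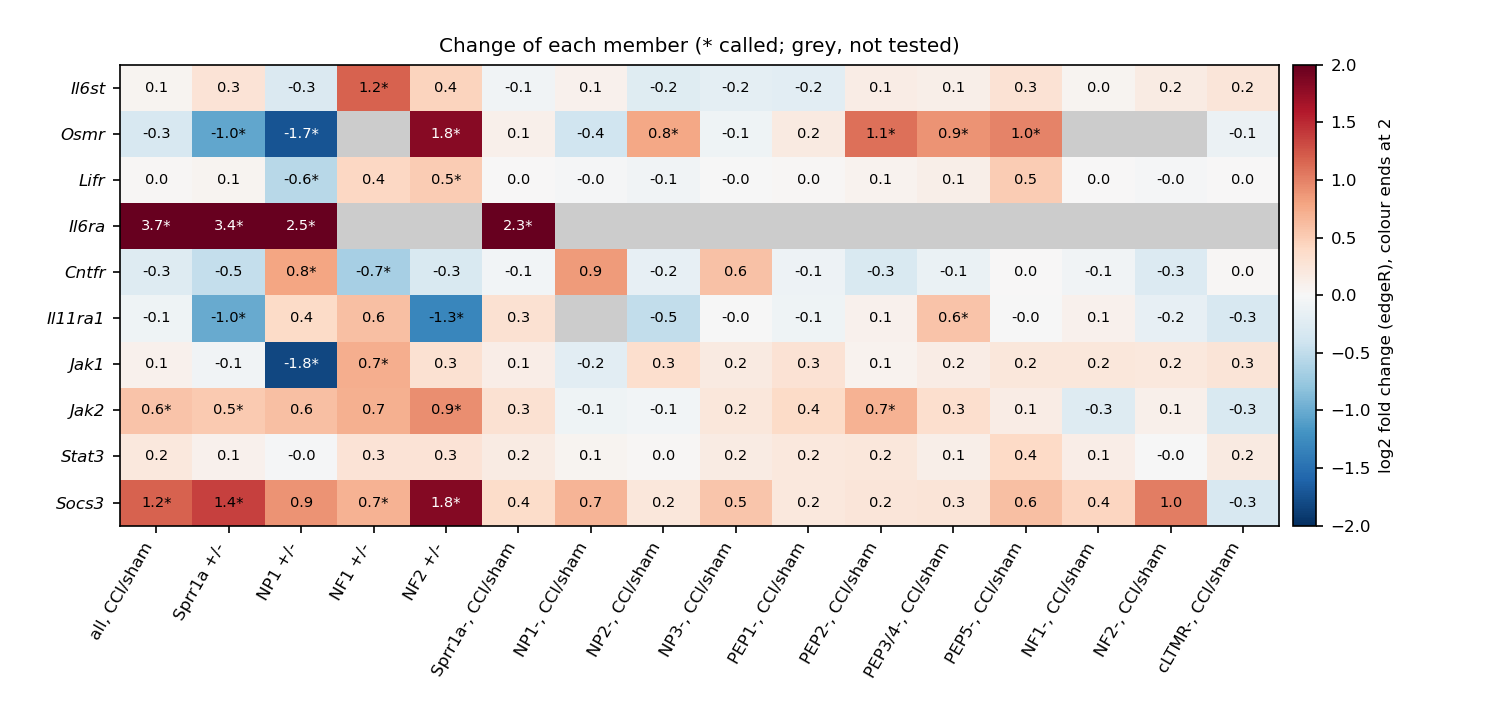
Log2 changes of the 10 genes (rows) from the edgeR fits in each comparison (columns): all neurons, *Sprr1a*- neurons, *Sprr1a*- neurons by subtype, and *Sprr1a*+ against *Sprr1a*- neurons overall and within NP1-like, NF1-like, and NF2-like neurons. Colour ends at a log2 change of 2, stars mark called changes, and grey fields were not tested. *Il6ra* and *Socs3* are the darkest in all neurons (3.75 and 1.18), and *Osmr* changes sign between the columns.

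The rise of *Socs3* and *Il6ra* was found mostly in CCI-ind-like neurons. In the CCI libraries these neurons carried 84.5% and 82.5% of the *Il6ra* UMIs and 68.1% and 65.6% of the *Socs3* UMIs of all neurons, against 48.0% and 46.4% of the *Il6st* and 17.1% and 20.6% of the *Osmr* UMIs. Here *Il6ra* lay at 2.46 and 2.22 CPM and *Socs3* at 149 and 156 CPM. Summed over a library, a change in a neuron cannot be told apart from a change in the number of neurons of a kind. *Sprr1a*+ neurons were therefore next set against *Sprr1a*- neurons of the same libraries.

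The second comparison set *Sprr1a*+ against *Sprr1a*- neurons within the CCI libraries, with the library as a block. Of the 10 genes 3 rose and 2 fell, against 45.5% of 16269 genes called (20.9% higher and 24.6% lower), so the share of called genes was near that of all genes. These sums differ in subtype as well as in injury.

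*Socs3* lay at 55.7 and 63.5 CPM in *Sprr1a*- and at 129.6 and 144 CPM in *Sprr1a*+ neurons of Male-CCI and Female-CCI, a log2 difference of 1.37 (SE 0.033, edgeR adjusted p = 6.0e-11). The few *Sprr1a*+ neurons of the sham libraries (42 and 144 cells) were also above their *Sprr1a*- neurons, at 79.3 and 59.5 against 42.6 and 47.8 CPM. Summed immune markers were 41.6 CPM in the *Sprr1a*+ neurons of Male-Sham. *Il6ra* had 18 and 18 UMIs in *Sprr1a*- and 189 and 171 UMIs in *Sprr1a*+ neurons of the CCI libraries, which is 0.241 and 0.227 against 2.15 and 2.12 CPM (log2 difference 3.35, SE 0.21, edgeR adjusted p = 1.1e-07). In the *Sprr1a*+ neurons of the sham libraries it was as high, 2.38 and 1.83 CPM from 6 and 11 UMIs. *Jak2* rose from 12.9 and 16.0 to 16.96 and 19.9 CPM (0.52, SE 0.054, edgeR adjusted p = 6.1e-06).

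Lower in *Sprr1a*+ neurons were *Osmr* and *Il11ra1*. *Osmr* lay at 42.5 and 35.5 CPM in *Sprr1a*- and at 15.8 and 17.7 CPM in *Sprr1a*+ neurons, 2.06-fold lower (log2 difference -1.04, SE 0.13, edgeR adjusted p = 0.0080). *Il11ra1* fell from 9.35 and 10.0 to 3.95 and 4.64 CPM (-1.003, SE 0.080, edgeR adjusted p = 7.7e-07). *Cntfr* was next, from 42.9 and 43.1 to 27.04 and 27.8 CPM, but its difference of -0.48 (SE 0.040, adjusted p = 1.0e-06 in edgeR) was under the size limit. With any *Sprr1a* UMI as the rule for *Sprr1a*+, the differences of *Osmr* and *Jak2* shrank to -0.25 and 0.27 and were not called, and *Cntfr* at -0.52 was.

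*Il6st*, *Lifr*, *Jak1*, and *Stat3* differed little between the 2 states. In the *Sprr1a*+ neurons of the CCI libraries *Il6st* lay at 122 and 120 CPM against 113 in both *Sprr1a*- sums, *Lifr* at 264 and 269 against 283 and 294 CPM, *Jak1* at 193 and 168 against 234 and 194 CPM, and *Stat3* at 255 and 263 against 267 and 283 CPM. The direction for *Lifr* and *Stat3* depended on scaling. With edgeR's TMM factors the log2 differences were 0.06 and 0.09, and with no scaling factors, an alternative added after seeing the data, -0.11 and -0.08. Without factors the median of all genes moved from -0.0010 to -0.169, *Jak2* fell to 0.36 and was not called, *Cntfr* at -0.65 was, and the share of higher genes among the called went from 45.9% to 34.4%.

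**Figure D3:**
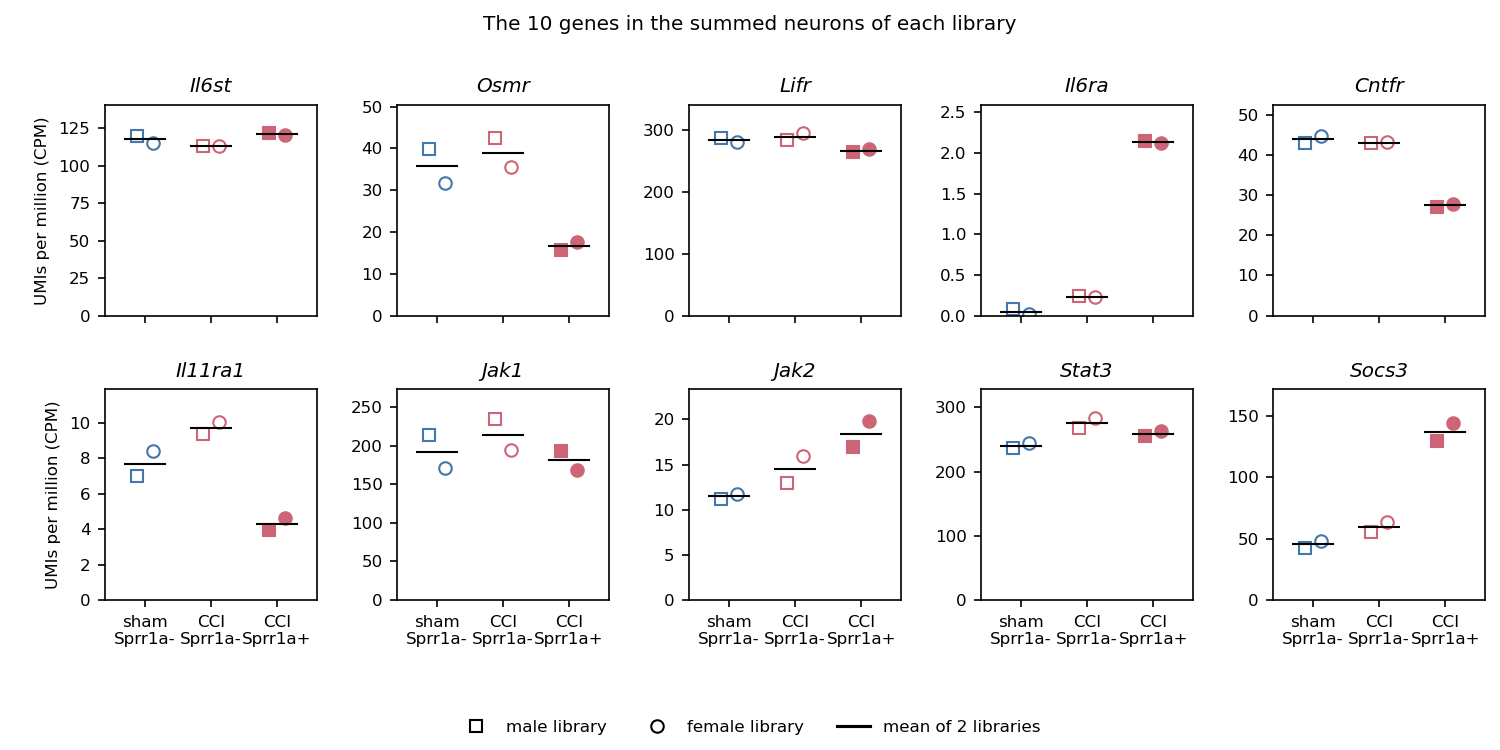
Level in CPM (linear axes from 0) of each gene in the *Sprr1a*- neurons of the sham libraries, and in the *Sprr1a*- and *Sprr1a*+ neurons of the CCI libraries. Squares are male and circles female libraries and lines are means of 2. *Socs3* and *Il6ra* are highest in *Sprr1a*+ neurons, with means of 137 and 2.13 CPM, *Osmr*, *Cntfr*, and *Il11ra1* are lowest there, and *Il6st* and *Lifr* differ little between the 3 columns.

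The CCI-ind-like clusters were not uniform in their receptors. Over the 5 clusters the mean *Osmr* level in the CCI libraries was 37.6 CPM in the one led by *Wfdc3*, *En1*, and *Flnc*, 7.13 CPM in the largest, led by *Anxa1*, *Krt16*, and *Tgfbi*, and 1.76 CPM in the one led by *Ankrd1* and *Arg2*. *Cntfr* was at 24.4, 18.1, and 50.8 CPM in the same clusters, highest where *Osmr* was lowest. *Socs3*, by contrast, was within 131 to 167 CPM in all 5, above every sham subtype, and *Il6ra* within 1.22 to 3.38 CPM.

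The comparison was repeated within the 3 subtypes that had enough *Sprr1a*+ and *Sprr1a*- neurons in both CCI libraries, NP1-like, NF1-like, and NF2-like. In PEP5-like neurons too few cells were *Sprr1a*+.

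In NP1-like neurons the receptor and kinase genes that mark the subtype were lower in *Sprr1a*+ cells. *Jak1* lay at 2214 and 1664 CPM in *Sprr1a*- and at 534 and 511 CPM in *Sprr1a*+ cells, 3.52-fold lower in the fit (log2 difference -1.81, SE 0.085). *Osmr* lay at 377 and 273 against 89.4 and 96.5 CPM, 3.32-fold lower (-1.73, SE 0.13). *Il31ra* ran with them, from 375 and 296 to 63.8 and 80.4 CPM, while *Lifr* dropped less, from 466 and 357 to 272 and 258 CPM (-0.56, SE 0.090). *Cntfr*, hardly present in this subtype, was at 7.90 and 9.12 against 13.8 and 14.3 CPM, and *Socs3* at 30.5 and 54.2 against 79.8 and 69.6 CPM. The limits counted 5 of the 10 genes as called here (*Jak1*, *Osmr*, *Lifr*, *Cntfr*, and *Il6ra* with 1 and 1 against 26 and 18 UMIs) and 24.0% of all genes.

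These NP1-like values come close to a comparison of 2 clusters, so no p is given. Of the *Sprr1a*+ cells, 97 of 98 in Male-CCI and 111 of 113 in Female-CCI were in 1 cluster, led by *Cd207*, which held few sham cells (6 and 23). Of the *Sprr1a*- cells, 25 of 31 and 23 of 35 were in the other, led by *Sst* and *Nppb*. The 12 *Sprr1a*- cells of Female-CCI in the first cluster had 117 CPM of *Osmr* and 626 CPM of *Jak1*, nearer to its *Sprr1a*+ cells (94.3 and 499 CPM) than to the *Sprr1a*- cells of the second (372 and 2317 CPM). The subtype's own markers were lower in *Sprr1a*+ cells too, *Nppb* with 143 and 124 against 781 and 661 CPM and *Npy2r* with 126 and 119 against 270 and 297 CPM. Whether the cells of the 2 clusters were the same neurons before injury was not tested.

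In NF1-like neurons, named from markers such as *Pvalb*, *Il6st* lay at 43.0 and 34.5 CPM in *Sprr1a*- and at 65.5 and 85.8 CPM in *Sprr1a*+ cells (1.18, SE 0.13), *Jak1* at 363 and 321 against 460 and 467 CPM (0.72, SE 0.093), and *Socs3* at 20.6 and 26.5 against 29.7 and 31.2 CPM (0.70, SE 0.18). *Cntfr* was lower in *Sprr1a*+ cells, with 55.6 and 48.8 against 26.0 and 30.0 CPM (-0.66, SE 0.15). The limits counted these 4 of the 8 genes tested as called, against 43.9% of all genes, and *Osmr* and *Il6ra* were too low to test. The fitted differences of *Jak1* and *Socs3* lay above the ratios of CPM in the single libraries, which were 0.34 and 0.54 for *Jak1* and 0.53 and 0.23 for *Socs3* on the log2 scale. With any *Sprr1a* UMI as the rule, *Il6st*, *Jak1*, and *Cntfr* were not called and the *Socs3* difference was -0.46. With DESeq2, *Socs3* and *Cntfr* were not called.

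The NF1-like values also come close to a comparison of clusters, so no p is given. The *Sprr1a*+ cells were nearly all in 1 of the 2 NF1-like clusters, led by *Ntng1*, *Cadps2*, and *Car3* (53 of 55 and 30 of 32), and the *Sprr1a*- cells were split over both, 33 to 31 and 32 to 22. Most markers of the subtype were lower in *Sprr1a*+ cells, *Pvalb* with 54.8 and 158 against 1271 and 1176 CPM and *Kcns1* with 3.33 and 6.46 against 91.3 and 85.4 CPM. *Hapln4*, *Runx3*, and *Stxbp6* were lower as well. The marker *Gabrg1* went the other way, with 135 and 112 CPM in *Sprr1a*+ against 38.3 and 37.2 CPM in *Sprr1a*- cells.

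In NF2-like neurons, which formed a single cluster, 82 and 85 cells were *Sprr1a*+ and 43 and 67 *Sprr1a*-. *Socs3* lay at 13.1 and 37.3 CPM in *Sprr1a*- and at 56.2 and 99.9 CPM in *Sprr1a*+ cells (1.84, SE 0.18), and *Il11ra1*, which is highest in this subtype in sham, at 30.3 and 28.5 against 6.75 and 15.6 CPM (-1.30, SE 0.28). Both were called in every alternative of this comparison that could be fitted. *Jak2* was at 7.86 and 11.4 against 13.0 and 19.8 CPM (0.93, SE 0.20), and its call was lost with DESeq2 and with no integration. *Lifr* was at 137 and 144 against 173 and 182 CPM (0.51, SE 0.11). It was called in 3 of 8 alternatives, and its ratio was 0.34 on the log2 scale in each library. *Osmr*, opposite to its direction in NP1-like neurons, had 2 and 10 against 39 and 21 UMIs, or 0.583 and 2.33 against 5.16 and 4.37 CPM (1.83, SE 0.53). Its ratio was 3.15 on the log2 scale in Male-CCI and 0.91 in Female-CCI, and the call was lost with DESeq2, with no integration, and with doublets kept (0.49). The limits counted 5 of 9 genes tested as called, against 34.9% of all genes.

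Here too no p is given, because the single cluster depended on the integration of the libraries. Without it, 55 of the 82 and 58 of the 85 NF2-like *Sprr1a*+ cells shared a cluster with 50 of the 55 and 29 of the 32 NF1-like *Sprr1a*+ cells, led by *Car3* and *Npy* and without sham cells, while 41 of the 43 and 49 of the 67 NF2-like *Sprr1a*- cells were in another. The NF2 markers moved both ways. *Htr3a* (1.46 and 0.416 against 137 and 110 CPM), *Sema5a* (49.9 and 57.0 against 242 and 219 CPM), and *Cgnl1* (31.2 and 31.4 against 115 and 93.3 CPM) were lower in *Sprr1a*+ cells. *Ddr2* (49.7 and 70.6 against 46.3 and 51.3 CPM) and *Prokr2* (52.9 and 63.3 against 43.4 and 49.0 CPM) were higher. *Ntrk2* differed little, at 5.16 and 5.41 against 6.12 and 5.83 CPM. Whether the cells of the 2 states were the same neurons before injury was not tested for NF1-like and NF2-like neurons either.

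**Figure D4:**
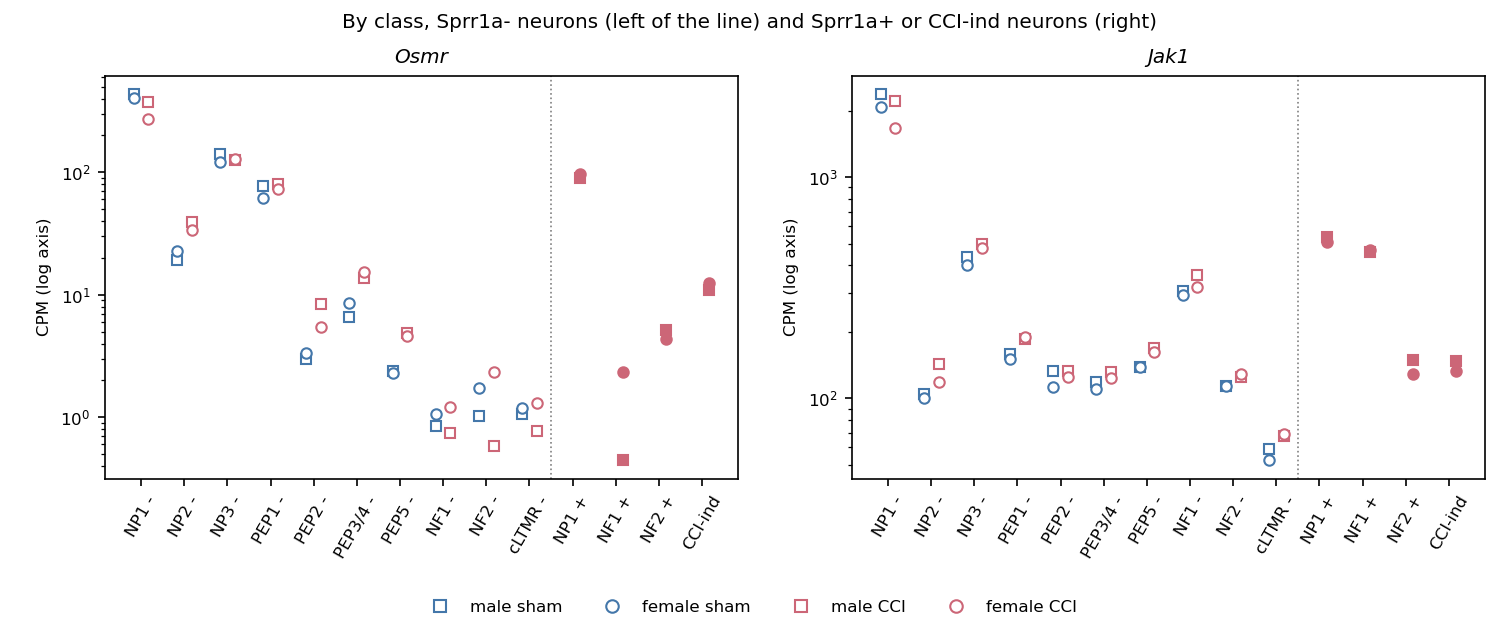
*Osmr* and *Jak1* in CPM (log axis) by subtype and library. Left of the dotted line are *Sprr1a*- neurons of the sham and CCI libraries, right of it the *Sprr1a*+ neurons of NP1-like, NF1-like, and NF2-like classes and the CCI-ind-like neurons of the CCI libraries. NP1-like *Sprr1a*- neurons stand at 273 to 436 CPM of *Osmr* and their *Sprr1a*+ neurons at 89.4 and 96.5 CPM, while NF2-like *Sprr1a*+ neurons are above their *Sprr1a*- neurons at 5.16 and 4.37 CPM.

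The third comparison asked whether *Sprr1a*- neurons differ between CCI and sham. These neurons did not pass the *Sprr1a*+ limit but were not free of *Sprr1a*. Their sums held 0.4695 and 1.237 CPM of *Sprr1a* in the sham and 23.13 and 26.97 CPM in the CCI libraries. *Atf3*, also injury-induced, was at 112.5 and 127.1 CPM in the sham and 174.6 and 199.6 CPM in the CCI libraries. The part of injured neurons in the changes of this comparison was not tested. Only *Il6ra* was called, against 4.47% of 16406 genes (3.23% higher and 1.24% lower). It had 13 and 3 UMIs in the sham and 18 and 18 UMIs in the CCI libraries, and its level of 0.0814, 0.0164, 0.241, and 0.227 CPM remained far below that of *Sprr1a*+ neurons. The log2 change was 2.27 (SE 0.59, edgeR adjusted p = 0.044), the pooled UMI ratio 5.02 (95% interval 2.71 to 9.68), and the call was lost with DESeq2, with any *Sprr1a* UMI as the rule, and without Female-Sham, Male-CCI, or Female-CCI. *Socs3* lay at 42.6 and 47.8 CPM in sham and 55.7 and 63.5 CPM in CCI libraries, and its change of 0.37 (SE 0.086, edgeR adjusted p = 0.037) was under the size limit. For the other 8 genes the changes ranged from -0.08 for *Il6st* to 0.31 for *Jak2* and *Il11ra1*, with adjusted p of 0.069 or more in edgeR. *Osmr* was among these, at 39.8, 31.8, 42.5, and 35.5 CPM.

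Within single subtypes of *Sprr1a*- neurons, *Osmr* rose after CCI in 4 of the 8 subtypes in which it was tested, all with sham levels of at most 22.8 CPM. In NP2-like neurons it went from 19.2 and 22.8 to 38.9 and 34.1 CPM (0.78, SE 0.095, edgeR adjusted p = 7.8e-05), and this call held in every alternative of this comparison, leaving out any library included, with changes from 0.53 with doublets kept to 0.95 with any *Sprr1a* UMI. In PEP3/4-like neurons it rose from 6.55 and 8.57 to 13.6 and 15.2 CPM (0.91, SE 0.14, adjusted p = 0.0021 in edgeR), a call that was lost without Female-CCI (0.82) and with any *Sprr1a* UMI (0.39). In PEP2-like neurons it rose from 3.01 and 3.35 to 8.41 and 5.42 CPM (1.10, SE 0.27, edgeR adjusted p = 0.00865), and the call was lost without Male-CCI (0.77), with DESeq2, with any *Sprr1a* UMI, and with no integration. PEP5-like neurons rested on 21, 27, 24, and 23 UMIs (2.39, 2.31, 4.92, and 4.64 CPM; 0.99, SE 0.31, edgeR adjusted p = 0.046), and leaving out any of the 4 libraries ended that call. In the subtypes with the highest *Osmr* the values were 436, 407, 377, and 273 CPM in NP1-like neurons (-0.39, edgeR adjusted p = 0.083), a change of -0.09 in NP3-like, and one of 0.17 in PEP1-like neurons. The NP1-like *Sprr1a*- cells included 1, 8, 6, and 12 cells of the cluster led by *Cd207*. Those of the cluster led by *Sst* and *Nppb* alone had 436, 441, 446, and 372 CPM. The *Osmr* level of SGC-like cells also differed, at 4.48 and 11.6 CPM in sham and 21.5 and 28.8 CPM in CCI libraries, from 5, 8, 15, and 16 UMIs. The SGC marker sum was lower after CCI in NP2-like (404 and 525 against 284 and 303 CPM), PEP2-like (3666 and 2789 against 2020 and 1728 CPM), and PEP3/4-like neurons (2719 and 3029 against 2094 and 2293 CPM). In PEP5-like neurons it was 3915 and 4336 against 3947 and 4260 CPM. The part of glial RNA in these *Osmr* changes was not tested.

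The other calls by subtype were *Jak2* in PEP2-like neurons (16.9 and 16.5 against 20.6 and 33.3 CPM; 0.70, SE 0.20, edgeR adjusted p = 0.043), which was 0.29 without Female-CCI and was called in 8 of 14 alternatives, being lost also without Male-Sham and without Female-Sham, and *Il11ra1* in PEP3/4-like neurons (13.1 and 17.04 against 22.7 and 22.6 CPM; 0.57, SE 0.13, edgeR adjusted p = 0.015), a call lost without Male-Sham or either CCI library. No gene of the 10 was called in NP1-like, NP3-like, PEP1-like, NF1-like, NF2-like, or cLTMR-like neurons. Of all genes, 4.46% were called in NP2-like, 4.37% in PEP2-like, 3.57% in PEP3/4-like, 3.36% in PEP5-like, 3.99% in NP1-like, 2.56% in NP3-like, 5.18% in PEP1-like, 1.11% in NF1-like, 1.92% in NF2-like, and 1.71% in cLTMR-like neurons.

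A single test of whether the CCI change of *Sprr1a*- neurons differs between the 10 subtypes called 7 of 9 genes, against 12.1% of 14936 genes tested. These were *Il6st* (edgeR adjusted p = 3.8e-04), *Jak1* (6.8e-04), *Osmr* (0.0022), *Stat3* (0.0034), *Jak2* (0.012), *Il11ra1* (0.034), and *Cntfr* (0.036), and not *Lifr* (0.11) or *Socs3* (0.54). For *Il6st* the change was -0.24 in NP2-like and -0.21 in PEP1-like but 0.29 in PEP5-like neurons. For *Jak1* it was -0.22 in NP1-like neurons and from 0.08 in PEP2-like to 0.33 in NP2-like among the others. *Sprr1a*- cells of the NP1-like cluster led by *Sst* and *Nppb* alone had 2380 and 2250 CPM of *Jak1* in sham. They had 2690 and 2317 CPM in the CCI libraries. The count of 7 was 2 without Male-Sham or without Female-CCI, 3 without Female-Sham, and 5 without Male-CCI.

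To see whether single neurons hold a receptor pair, each cell was thinned to 10000 UMIs, a depth chosen after the data were seen, which left out 206, 302, 117, and 228 neurons. *Il6st* and *Lifr* were then detected together in 53.3%, 51.5%, 55.4%, and 56.3% of neurons, *Il6st* and *Osmr* in 13.4%, 11.8%, 10.9%, and 11.5%, and *Il6st*, *Lifr*, and *Cntfr* in 18.1%, 18.3%, 16.7%, and 16.9%. In these shares sham and CCI libraries lay close together. The pair of *Il6st* and *Osmr* was found in 72.0% and 66.3% of NP1-like neurons of the sham libraries, in 57.0% and 47.1% of NP3-like, and in 0 of 141 and 0 of 156 NF1-like neurons, which allows shares of up to 2.13% and 1.92%. In the CCI libraries it was found in 44.2% and 48.3% of NP1-like neurons, but the make-up of this subtype differed. Before thinning, the cluster led by *Cd207* held 6 of 88 and 23 of 86 NP1-like neurons in sham. In the CCI libraries it held 103 of 129 and 123 of 148. *Socs3* was detected in 27.8%, 31.3%, 47.3%, and 51.5% of neurons at this depth, and in 61.6% and 65.6% of the *Sprr1a*+ neurons of the CCI libraries. *Il6ra*, at 0.163%, 0.0785%, 1.26%, and 1.08%, was found in few neurons even after CCI.

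A satellite glial background was set beside these shares at 2000 UMIs per cell, because SGC-like cells had a median of only 4188 to 5160 UMIs. At that depth *Socs3* was detected in 8.32%, 9.95%, 16.8%, and 17.5% of neurons and in 47.9%, 64.8%, 44.9%, and 54.1% of SGC-like cells, so glia had more of it than neurons in every library. *Il6st* with *Lifr* stood at 9.81%, 8.45%, 10.1%, and 9.35% of neurons and at 6.99%, 8.97%, 4.24%, and 9.17% of SGC-like cells, the lower of the pair being neurons in Female-Sham and glia in the other libraries. Without thinning, the share of neurons with an *Il6ra* UMI was 0.549%, 0.241%, 6.28%, and 4.45%. Among SGC-like cells there were 0 of 186 and 0 of 145 in sham and 2 of 118 and 1 of 109 in CCI libraries. The counts of 0 allow shares of up to 1.61% and 2.07%.

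SGC-like cells had their own profile of the pathway. They had 257 and 266 CPM of *Cntfr* in sham, above every neuronal subtype, and 228 and 198 CPM after CCI. *Il11ra1* was 92.2 and 74.1 CPM in sham and 45.9 and 53.9 CPM in CCI libraries, and *Stat3* 102 and 158 against 184 and 219 CPM. *Socs3* did not separate the surgeries in these cells, at 504, 807, 449, and 787 CPM. *Il6ra* was highest in the 24 immune-like cells, at 44.2 to 89.0 CPM from only 1 to 6 UMIs a library.

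The pathway around the 10 genes was described with 63 further genes in 6 lists. Among 11 genes listed as gp130 cytokines, 8 were tested over all neurons. Of these 5 rose and 2 fell after CCI, against 27.8% of all genes called (median log2 change 1.56 against -0.0062 for all genes). *Il27*, a subunit of interleukin-27, rose by 4.68 (SE 0.50) from 3 and 2 to 75 and 44 UMIs, a pooled ratio of 26.0 (95% interval 10.8 to 81.4). *Clcf1*, a cytokine that acts through CNTFR, rose by 2.59 (SE 0.22) from 0.339 and 0.406 to 2.55 and 1.79 CPM. *Lif* rose by 2.14 from 3 and 4 to 18 and 10 UMIs, and *Il6* by 0.99, while *Ebi3* and *Ctf1* fell by 1.02 and 0.87. In *Sprr1a*+ against *Sprr1a*- neurons 4 of 7 tested were higher and 2 lower, against 45.5% of all genes called. Among the higher were *Il27* at 6.57 and *Clcf1* at 3.88. *Osm*, *Cntf*, and *Il31* had 4, 1, and 0 UMIs in all neurons and were not tested. *Il31* was in this list although its receptor pairs OSMR with IL31RA instead of gp130.

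*Stat5a* and *Stat5b* were the genes called after CCI among 5 tested of the other STATs, against 27.8% of all genes. *Stat5a* rose from 3.15 and 3.61 to 13.7 and 14.8 CPM (2.13, SE 0.088) and *Stat5b* from 23.0 and 23.3 to 44.0 and 46.8 CPM (1.03, SE 0.046), with both CCI libraries above both sham libraries. In *Sprr1a*+ against *Sprr1a*- neurons they were higher by 2.69 and 1.63. Of the 3 tested among other receptors and kinases, 0 were called after CCI. *Jak3* was lower in *Sprr1a*+ neurons (-0.55), a contrast in which 45.5% of all genes were called.

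Of 15 feedback inhibitors and phosphatases, 4 rose and 0 fell in all neurons, which is near the 27.8% of all genes called. The largest changes were those of *Cish* (3.31 and 3.17 against 12.4 and 12.2 CPM; 1.99, SE 0.061), *Socs2* (61.5 and 56.3 against 128 and 127 CPM; 1.17, SE 0.054), and *Socs1* (0.85). *Cish* and *Socs2* are known as targets of STAT5. In *Sprr1a*+ against *Sprr1a*- neurons 3 were higher (*Cish*, *Socs2*, *Socs1*) and 3 lower, against 45.5% of all genes called, with *Ptpn6*, a phosphatase of blood cells, at -2.19.

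Genes known as STAT3 targets in other tissues moved both ways. Of 21 tested, 5 rose and 2 fell after CCI, against 27.8% of all genes called, led by *Timp1* (2.24), *Pim1* (1.10), and *Il4ra* (0.73), and *Fos* and *Irf1* fell. In *Sprr1a*+ against *Sprr1a*- neurons 7 were higher, among them *Pim1* (1.48) and *Cebpb* (1.27), and 5 lower, among them *Serpina3n* (-1.66), against 45.5% of all genes. The median of the list was 0.31 in the first comparison and 0.06 in the second. Of 3 injury-induced genes known to depend on gp130 cytokines, *Gal* rose from 343 and 372 to 3516 and 3607 CPM (3.37, SE 0.060) and *Nts* rose by 2.90, while *Reg3b* had 842 UMIs in Male-CCI and 150 in Female-CCI and was not called (4.32, SE 1.2, edgeR adjusted p = 0.070). In *Sprr1a*+ against *Sprr1a*- neurons all 3 were called higher, *Reg3b* at 4.45 (SE 0.62), *Gal* at 3.795, and *Nts* at 3.79, against 45.5% of all genes called.

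In *Sprr1a*- neurons, 4.47% of all genes were called between CCI and sham. Of the list genes tested, 1 of 6 cytokines and 2 of 15 feedback inhibitors and phosphatases were called. So were 1 of 21 STAT3 targets and 1 of 3 injury-induced genes. Among the called genes, all higher, were *Cish* (0.82), *Ptpn1* (0.59), *Serpina3n* (0.65), and *Nts* (1.96). None of the other receptors, kinases, and STATs was among them.

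**Figure D5:**
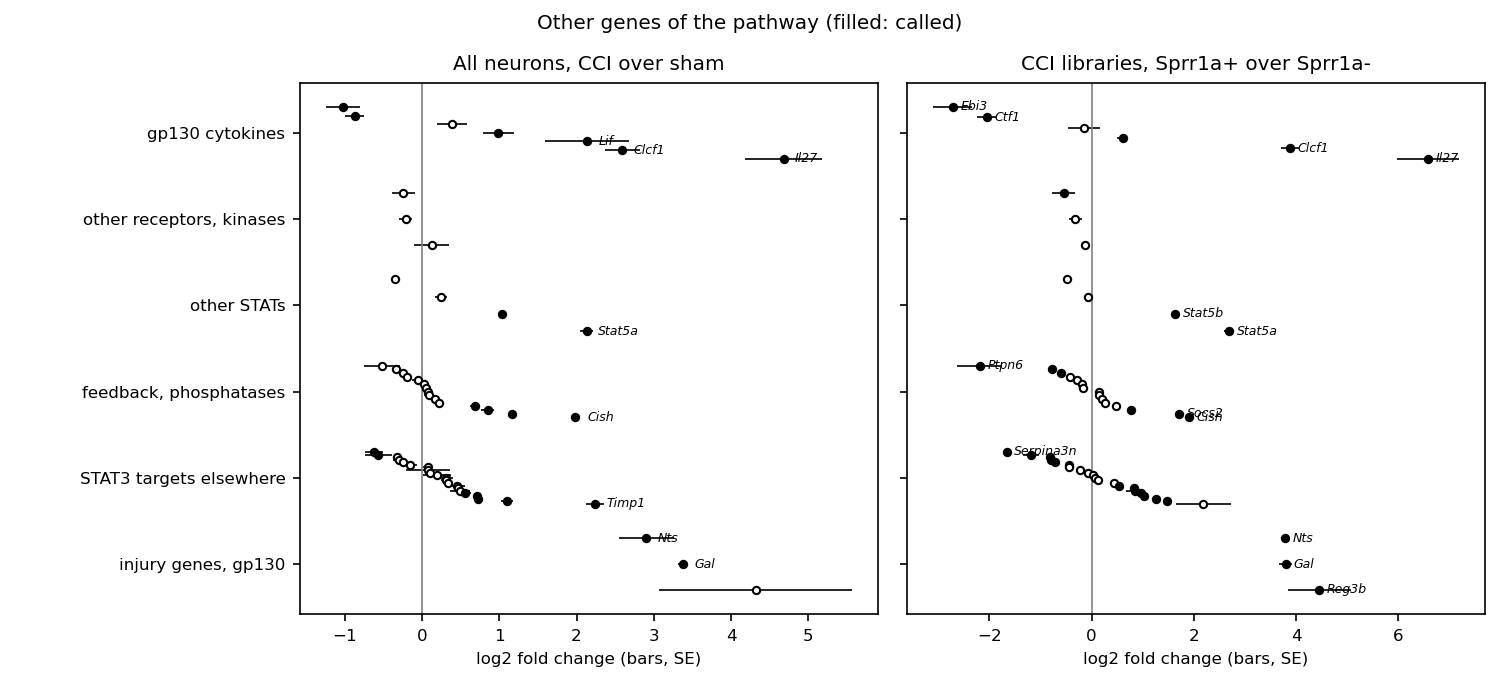
Log2 change ± SE of the genes shown of the 6 lists in all neurons (CCI against sham) and in *Sprr1a*+ against *Sprr1a*- neurons of the CCI libraries. Filled points are called genes. *Il27* and *Clcf1* among the cytokines and *Reg3b*, *Gal*, and *Nts* among the injury genes lie farthest to the right. *Reg3b* was not called in all neurons. The STAT3 target list is spread on both sides of 0.

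Across the 48 sums of a subtype in a library, the genes most like each of the 10 were sought among 6183 genes by Pearson's r of log2(CPM + 1). The sums share libraries and depth, so r is a description. *Cntfr* had the closest match, *Selenom* (r = 0.964), then *Vps26a* (0.929). *Il6ra* ran with *Gnpnat1* (0.936) and *Ifrd1* (0.899), *Lifr* with *Arpc1b* (0.922) and *Myt1* (0.860), *Socs3* with *Klf6* (0.907) and *H3f3b* (0.883), and *Osmr* with *Fkbp15* (0.900) and *Tmem233* (0.888). *Il6st* was most like *Slc44a2* (0.877) and *Gpd2* (0.876), *Il11ra1* like *Cnrip1* (0.847) and *Stk32c* (0.840), *Stat3* like *Ywhab* (0.838), and *Jak2* like *Sergef* (0.835) and *Cdv3* (0.829). *Jak1* had no close match, with *Sst* (0.754), a marker of NP1-like neurons, and *Etv1* (0.736) in front.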

How the data were processed

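The authors deposited UMI counts per gene and cell from Chromium 3′ v3 libraries, aligned to mm10 with Cell Ranger (2.1.1 in the submitters' processing notes, 3.0.2 in the matrix headers), as 1 matrix of counts per library without normalization. A 3′ library gives 1 UMI per captured molecule, so CPM is not scaled by gene length, but capture can differ between genes.

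From these counts, cells were scored by Scrublet (scanpy 1.11.5, expected rate 0.1). Its threshold did not separate doublets. As many top-scoring cells per library as the study lists were therefore taken out, which cells being decided here. At least 1500 genes and at most 10% mitochondrial UMIs were required per cell. Libraries were integrated (Seurat 5.3.0, 3000 variable genes, 20 principal components, resolution 0.8), and clusters were named from at least 3 markers found in 10% of cells at 2-fold excess. Names were rebuilt here and may differ from the study's. *Sprr1a*+ is a ln-normalized value above 1, and *Sprr1a* was left out of tests.

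Counts were summed over at least 10 cells per library and tested with edgeR 4.0.16 (quasi-likelihood, TMM, filterByExpr), with Benjamini-Hochberg adjustment over all genes tested. Male and female libraries were the 2 replicates of a surgery. SE is the log2 change over the square root of F. DESeq2 1.42.0, other filters, doublets kept, 3000 genes per cell, other *Sprr1a* rules, resolutions 0.4 and 1.2, no integration, sex as a block, and leaving out each library were alternatives. Added after seeing the data were thinning to 10000 UMIs, ratios within each CCI library, and other edgeR scaling factors. Shares have exact (Clopper-Pearson) 95% intervals, and a count of 0 allows up to 3 UMIs.

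The 10 genes and the lists were chosen with earlier results of these data known. All 10 were named in each comparison, and of each list the 3 called genes with the largest change, and of likeness the 2 closest genes. A few that these rules name are not reported here. Tests were checked on simulated counts. For all neurons, with 200 genes changed, edgeR recovered 86.0% of 2-fold and 96.0% of 4-fold changes. For *Sprr1a*- NP1-like neurons it recovered 63.0% and 95.0%, and DESeq2 30.0% and 84.0%. In the test between subtypes, with the changes put into NP2-like neurons, edgeR recovered 56.0% and 69.0%. A gene not called in a subtype may therefore still have changed. Protein sequences were not used here.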

Additional observations from a re-analysis of the deposited data

Results flagged for a closer look

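The CCI change of *Sprr1a*- neurons differed between the 10 subtypes for 7 genes, by edgeR's F test of all class-by-surgery terms with Benjamini-Hochberg adjustment over 14936 genes. The adjusted p was 0.000384 for *Il6st*, 0.000679 for *Jak1*, 0.00216 for *Osmr*, 0.00337 for *Stat3*, 0.0115 for *Jak2*, 0.0344 for *Il11ra1*, and 0.0359 for *Cntfr*. The count of such genes was 2 to 5 when a library was left out.

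For 3 genes the ratio of CCI to sham over all neurons pointed in opposite directions in the male and the female libraries. The male minus female difference of log2 ratios was -0.0467 for *Il6st*, -0.0803 for *Lifr*, and -0.0987 for *Jak1*, and these differences, from 1 library each, were not tested.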

How the results depend on the processing

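Over all neurons 3 of the 10 genes were called, 2 to 3 when a library was left out, and in *Sprr1a*+ against *Sprr1a*- neurons 5 were called, or 4, with *Cntfr* in place of *Osmr* and *Jak2*, under any *Sprr1a* UMI. Within NP1-like, NF1-like, and NF2-like neurons 14 calls became 6 with DESeq2, 5 with any *Sprr1a* UMI, and 8 with no integration. In *Sprr1a*- neurons 1 call became 0 with DESeq2 and with any *Sprr1a* UMI, and 0 to 1 when a library was left out. By subtype 6 calls became 3 with DESeq2, 3 with no integration, 11 with sex as a block, and 2 to 10 when a library was left out. The differences between subtypes, 7 in number, became 2 with any *Sprr1a* UMI and 2 to 5 when a library was left out. The *Socs3* difference in NF1-like neurons, 0.70, was -0.46 with any *Sprr1a* UMI. The cause of these shifts was not tested.

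Libraries of the same sex deviated together (r = 0.605 over 12836 genes), but with 2 pairs that share sex and no animals this is a hint only. The block with sex gave 3 calls over all neurons and 1 in *Sprr1a*- neurons, the same counts as without it. Of single gene values under the alternatives, 1771 kept their side of the limits or, with no test, stayed within 1 SE, 84 lost and 37 gained a call, 53 values with no test moved further, and 1 called value changed sign. Of the 1686 log2 values among the 1771, 106 changed sign, none of them called. Depth limits *Il6ra* most, with 33 UMIs over all sham neurons.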
